A study of Mus musculus with 5 samples.

Results

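Translation initiation factors are the proteins that bring a ribosome, the initiator tRNA and a messenger RNA together at a start codon. Their transcripts were examined in 5 RNA sequencing libraries of tumor-infiltrating CD8+ T cells, 2 from mice given anti-PD-L1 and 3 from mice given Control IgG. The genes were taken by name, as every listed symbol that starts with Eif and a digit from 1 to 6, without the eIF2 kinase genes Eif2ak1 to Eif2ak4, and with at least 10 counts over the 5 libraries. Of 23337 listed genes, 54 matched the name and 51 of these reached the count minimum. Those left out were Eif3j and Eif4e1b, listed at 0 in all 5 libraries, and Eif2c4, with 2 counts in all. The name pattern also took in 3 genes under older symbols, Eif2c1, Eif2c2 and Eif2c3, which are now named Ago1, Ago2 and Ago3. Argonaute proteins carry small RNAs in gene silencing and are not initiation factors, so they are described apart. That leaves 48 genes, called initiation factor genes here by their symbols. Among them are Eif4a3, Eif5a and the genes of eIF4E-binding proteins, whose other roles are given below. The 48 were 5 genes of eIF1, 11 of eIF2, 12 of eIF3, 15 of eIF4, 4 of eIF5 and 1 of eIF6.

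In both groups the T cells came from C57BL/6J CD45.1 OT-I mice, 6 to 12 weeks old, in which a transgene gives CD8+ T cells a single receptor against ovalbumin. They were activated in culture with antibodies to CD3 and CD28, expanded in a low dose of IL-2, and injected into hosts with B16-OVA tumors. B16-OVA is a mouse melanoma line engineered to express ovalbumin. The anti-PD-L1 mice received 200 µg of antibody against PD-L1, which tumor and myeloid cells display to restrain T cells through PD-1, on days 3 and 6 after the transfer, and the Control IgG mice received 200 µg of a rat IgG2b against KLH on the same days. Tumors were taken on day 8, or earlier if they reached 1.2 cm, and several mice of a group were pooled before live CD8+ CD45.1+ cells were sorted. Each library is therefore a pool and not an animal.

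Initiation runs in steps. eIF2 carries the initiator tRNA to the small ribosomal subunit with GTP, and eIF2B, its exchange factor, reloads it. eIF3, eIF1 and eIF1A hold the scanning subunit ready, eIF4E binds the cap of the messenger, eIF4G bridges, the helicase eIF4A unwinds, and eIF5 and eIF5B trigger GTP hydrolysis and the joining of the large subunit. Activated T cells are known to raise their rate of protein synthesis, with mTOR acting through the eIF4E-binding proteins and MYC acting on the transcription of many of these genes.

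The anti-PD-L1 libraries held 11580960 and 12830485 counts in genes and the Control IgG libraries 9985943 to 12395682. Anti-PD-L1 replicate 1 and Control IgG replicate 1 stood apart, with 11977 and 11696 detected genes, where the other libraries had 13564 to 13801. T cell markers fixed as a list summed to 9385 and 7841 CPM in the anti-PD-L1 libraries and to 7310 to 8205 CPM in the Control IgG libraries, with all 8 detected. Of 37 listed markers of other cell types, 32 had a count, and together they summed to 179 and 327 CPM after anti-PD-L1 and to 264 to 497 CPM after Control IgG. Melanoma markers summed to 39.5 and 102 CPM after anti-PD-L1 and to 3.95, 295 and 93.9 CPM after Control IgG. Macrophage and monocyte markers summed to 72.8 and 105 CPM after anti-PD-L1 and to 162, 115 and 70.5 CPM after Control IgG. S100a9, Col3a1, Cdh5 and Hba-a1 were among the markers at 0. Pecam1, listed with Cdh5, had 28.5 and 47.9 CPM after anti-PD-L1 and 42.3, 39.2 and 57.6 CPM after Control IgG. CPM is a gene's count relative to its library's total, here adjusted by TMM factors except for these marker values.

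None of the 51 genes passed an adjusted p of 0.05 in edgeR's quasi-likelihood test in either direction, where 0.0% of 11299 tested genes passed, and the smallest adjusted p among the members was 0.9999. None reached an unadjusted p under 0.05 either, where 2.13% of all tested genes did, 1.19% higher and 0.947% lower. All 51 had passed the filter on low counts. The direction was uneven: 44 of the 51, and 42 of the 48 without Argonaute genes, had a log2 fold change of anti-PD-L1 over Control IgG below 0, against 51.9% of all tested genes. The median was -0.25 over the 48 genes and -0.02 over all tested genes. Both anti-PD-L1 libraries lay below every Control IgG library for 14 of the 48, or 29.2%, where 9.58% of all tested genes did, and above every Control IgG library for 0 of the 48, where 7.74% of all tested genes did.

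The number of the 51 members at an unadjusted p under 0.05 varied with the setting, from 0 to 7. There was 1 with DESeq2 (Eif3a), where 3.14% of tested genes passed, 3 with library totals in place of TMM (Eif1ad, Eif3l and Eif5), where 2.5% passed, and 0 with limma-voom, where 2.27% passed. With the replicate number as a block there were 7, where 5.35% of tested genes passed. There were 5 without anti-PD-L1 replicate 2, where 9.66% passed, 2 without Control IgG replicate 3, where 2.17% passed, and 1 without both libraries numbered 1, where 4.38% passed. No member passed an adjusted p of 0.05 with DESeq2, where 0.0354% of tested genes passed, or in edgeR without the filter on low counts, where 0.0331% passed.

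**Figure D1:**
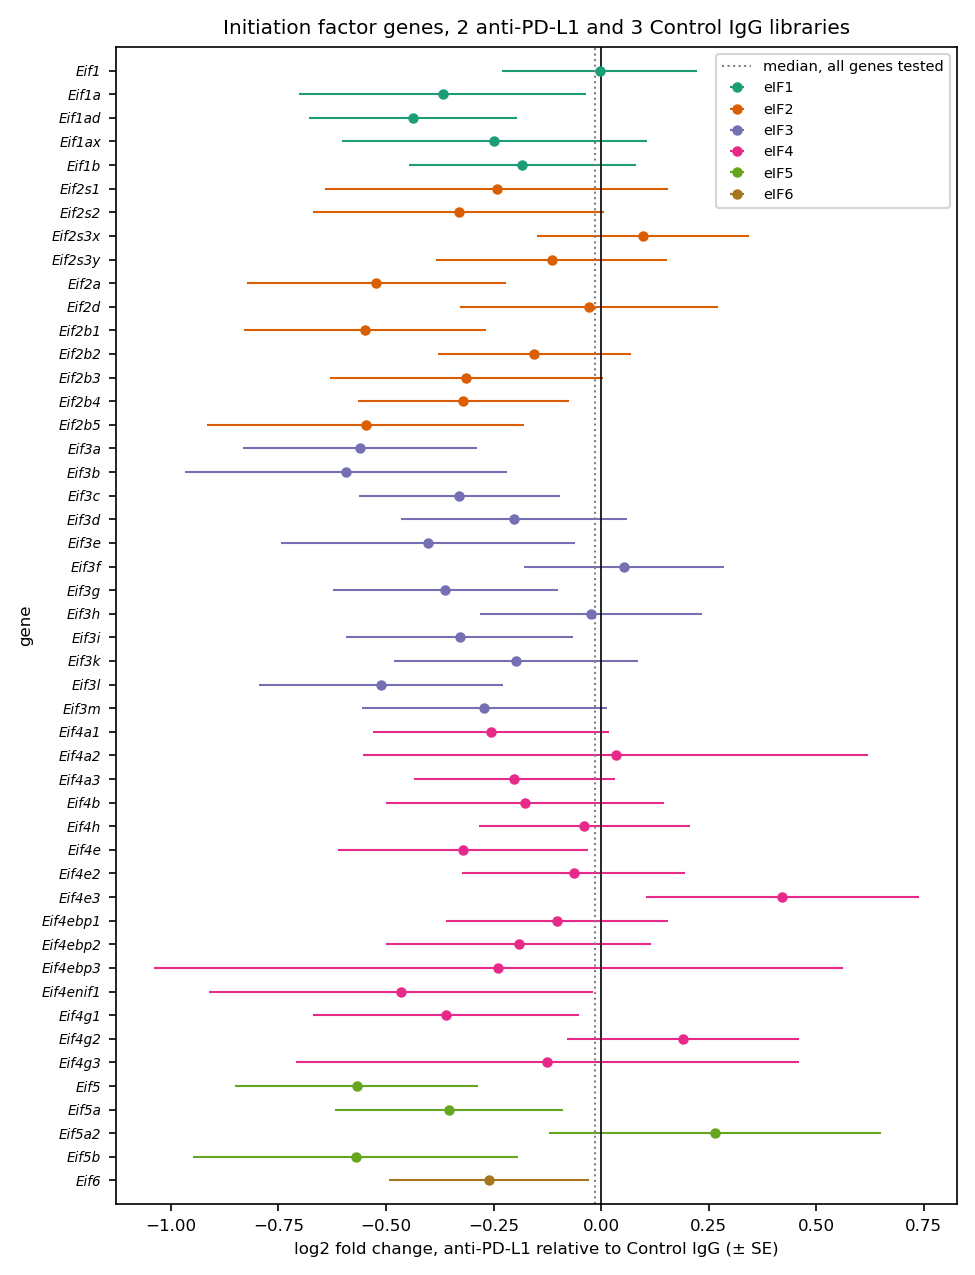
Log2 fold change of anti-PD-L1 over Control IgG with its standard error (horizontal axis) for the 48 initiation factor genes (vertical axis), coloured by subfamily, from 2 anti-PD-L1 and 3 Control IgG libraries. Of the 48 points, 42 lie left of 0, and the dotted line marks the median of all tested genes at -0.02.

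The size of this shift depended on which libraries were kept, Control IgG replicate 1 among them. That library had the highest level of all 5 for 29 of the 48 genes, where it was the highest for 28.2% of all tested genes. On the log2 scale, relative to the Control IgG mean, the median gene of the 48 stood at -0.19 and -0.27 in the anti-PD-L1 libraries, and at 0.29, -0.09 and -0.12 in Control IgG replicates 1, 2 and 3. Without Control IgG replicate 1 the median of the 48 fold changes was -0.15 and 37 of the 51 were below 0. With another single library left out, that median ran from -0.36, without Control IgG replicate 3, to -0.20, without anti-PD-L1 replicate 2. Without both libraries numbered 1 the median was -0.16 and 39 of the 51 were below 0. Without Control IgG replicate 1, anti-PD-L1 lay below the remaining Control IgG libraries for 18 of the 51, or 35.3%, where 17.1% of all tested genes did. Without both libraries numbered 1 it did so for 28 of the 51, or 54.9%, where 31.7% of all tested genes did.

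Summed over the 48 genes, the level was 12175 and 12042 CPM in the anti-PD-L1 libraries, against 16987, 13538 and 12631 CPM in Control IgG replicates 1 to 3. The anti-PD-L1 sums lie close to each other and below all 3 Control IgG sums, of which that of replicate 3 is the nearest. In shares of all gene counts, with no TMM factor, they were 1.13% and 1.26% after anti-PD-L1 and 1.53%, 1.45% and 1.34% after Control IgG, again without overlap.

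**Figure D2:**
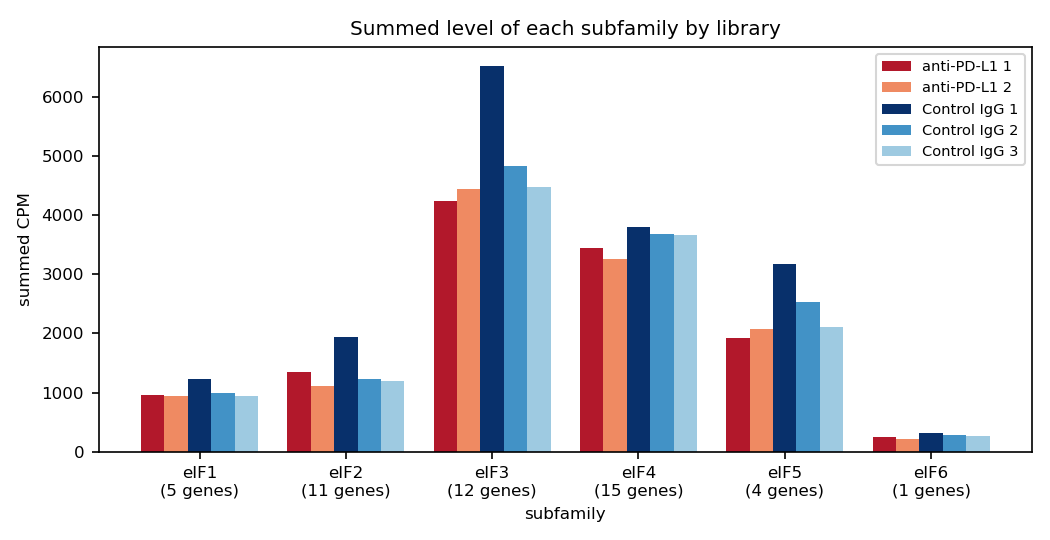
Summed CPM (vertical axis) of the genes of each subfamily eIF1 to eIF6 (horizontal axis), 1 bar per library. The eIF3 sums after anti-PD-L1, at 4244 and 4449 CPM, lie below the Control IgG sums of 6516, 4823 and 4468 CPM, and Control IgG replicate 1 has the tallest bar in each subfamily.

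Shares of the initiation factor CPM overlapped between the groups for every subfamily except eIF1, which made up 7.93% and 7.78% after anti-PD-L1 and 7.27%, 7.38% and 7.42% after Control IgG. eIF3 made up 34.9% and 36.9% of the initiation factor CPM after anti-PD-L1 and 35.4% to 38.4% after Control IgG, and eIF4 made up 28.3% and 27.1% after anti-PD-L1 and 22.4% to 29.0% after Control IgG. eIF5 had 15.9% and 17.2% after anti-PD-L1, against 16.7% to 18.7% after Control IgG, and most of it was Eif5a. The median log2 fold change was -0.25 for eIF1, -0.31 for eIF2, -0.33 for eIF3, -0.18 for eIF4 and -0.46 for eIF5, and the single eIF6 gene had -0.26. The groups did not overlap, with anti-PD-L1 below as in 9.58% of all tested genes, for 1 of 5 eIF1 genes, 4 of 11 eIF2 genes, 5 of 12 eIF3 genes, 1 of 15 eIF4 genes, 2 of 4 eIF5 genes and the eIF6 gene. Without Control IgG replicate 1 the median was -0.0098 for eIF1, -0.072 for eIF2, -0.084 for eIF3 and -0.28 for eIF5, and without anti-PD-L1 replicate 1 the eIF4 median was 0.0074 and the eIF5 median -0.23. The difference between subfamilies was not tested.

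eIF1 keeps the scanning ribosome from accepting a wrong start codon. Eif1, its main gene, had 499 and 566 CPM after anti-PD-L1 and 567, 529 and 505 CPM after Control IgG, with a log2 fold change of -0.00 ± 0.23 (SE). The groups overlap, with anti-PD-L1 replicate 1 the lowest library and Control IgG replicate 1 the highest. Its close paralog Eif1b had 59.1 and 52.3 CPM after anti-PD-L1 and 55.1 to 76.0 CPM after Control IgG. eIF1A, which binds the decoding site, is made from Eif1ax on the X chromosome and from Eif1a. Eif1ax had 189 and 115 CPM after anti-PD-L1 and 254, 156 and 132 CPM after Control IgG. Eif1a had 98.6 and 81.9 CPM after anti-PD-L1 and 168, 94.7 and 87.1 CPM after Control IgG, so both followed the high value of Control IgG replicate 1. Eif1ad, named for a domain it shares with eIF1A, had 119 and 122 CPM after anti-PD-L1 and 190, 143 and 155 CPM after Control IgG, a log2 fold change of -0.44 ± 0.24 (SE) and the only eIF1 gene without overlap.

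eIF2 has 3 subunits. Eif2s1 encodes the alpha subunit, whose phosphorylation by the eIF2 kinases slows initiation under stress. It had 338 and 246 CPM after anti-PD-L1 and 547, 256 and 234 CPM after Control IgG, with a log2 fold change of -0.24 ± 0.40 (SE), and 0.25 without Control IgG replicate 1. Eif2s2, the beta subunit, was likewise highest in Control IgG replicate 1 and lowest in Control IgG replicate 3, with 178 and 139 CPM after anti-PD-L1 and 282, 179 and 137 CPM after Control IgG. The gamma subunit binds GTP and is encoded by the X-linked Eif2s3x and the Y-linked Eif2s3y. Eif2s3x had 134 and 129 CPM after anti-PD-L1 and 107, 114 and 148 CPM after Control IgG. Eif2s3y had 107 and 87.2 CPM after anti-PD-L1 and 131, 93.9 and 89.9 CPM after Control IgG. The other Y-linked genes Ddx3y, Uty and Kdm5d were detected in every library of both groups. Xist, which is transcribed from the inactive X of female cells, had 0 counts in all 5 libraries. Ddx3y had 60.1 and 52.8 CPM after anti-PD-L1 and 32.9, 32.4 and 47.2 CPM after Control IgG. Uty had 19.4 and 14.7 CPM after anti-PD-L1 and 5.90, 7.94 and 10.7 CPM after Control IgG. For both, anti-PD-L1 lay above every Control IgG library, as for 7.74% of all tested genes. Uty had an unadjusted p of 0.030 and an adjusted p of 0.9999 in edgeR. For Kdm5d and Eif2s3y the groups overlapped, with log2 fold changes of -0.16 and -0.12. The pair of gamma genes is near-identical and the counting of reads that match both is not stated, so their separate levels are uncertain, as are those of Eif1 and Eif1b, Eif1a and Eif1ax, and Eif4a1 and Eif4a2.

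eIF2B had all 5 subunit genes below 0, as 51.9% of all tested genes were, with a median log2 fold change of -0.32. Its groups did not overlap for 3 of the 5, with anti-PD-L1 below, where 9.58% of all tested genes lay so. Control IgG replicate 1 was the highest library for 4 of the 5, and for 28.2% of all tested genes. Without that library the log2 fold change was -0.34 for Eif2b1 and -0.20 for Eif2b5. Eif2b1, the alpha subunit, at chr5:124570213-124579131 on the minus strand of GRCm38, had 63.6 and 78.5 CPM after anti-PD-L1 and 132, 84.8 and 95.4 CPM after Control IgG, a log2 fold change of -0.55 ± 0.28 (SE). Both anti-PD-L1 libraries lay below every Control IgG library, and the same held for Eif2b2, the beta subunit, with 86.7 and 87.7 CPM after anti-PD-L1 and 97.2, 102 and 92.6 CPM after Control IgG, and for Eif2b4, the delta subunit, with 71.1 and 67.5 CPM after anti-PD-L1 and 100.5, 80.1 and 79.1 CPM after Control IgG. Eif2b5, the catalytic epsilon subunit, had 118 and 70.2 CPM after anti-PD-L1 and 197, 104 and 111 CPM after Control IgG, a log2 fold change of -0.55 ± 0.37 (SE), with anti-PD-L1 replicate 1 inside the range of the Control IgG libraries. Eif2b3, the gamma subunit, also overlapped. The alternative factor eIF2A, from Eif2a, a protein unrelated to the eIF2 alpha subunit, had 52.0 and 51.5 CPM after anti-PD-L1 and 98.8, 66.8 and 57.5 CPM after Control IgG, without overlap. Eif2d, which can also deliver tRNA, had 136 and 109 CPM after anti-PD-L1 and 169, 100 and 105 CPM after Control IgG.

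eIF3 is the largest factor, a scaffold of many subunits on the small ribosomal subunit. Of its 12 genes, 11 had a log2 fold change below 0, where 51.9% of all tested genes did. Eif3a, a core subunit at chr19:60761117-60790658 on the minus strand, had the smallest p of all members, 0.073 unadjusted and 0.9999 adjusted in edgeR. Its level was 208 and 320 CPM after anti-PD-L1 and 373, 436 and 358 CPM after Control IgG, or 264 ± 79.3 CPM (SD, n = 2) against 389 ± 41.6 CPM (SD, n = 3), a log2 fold change of -0.56 ± 0.27 (SE). The lowest value is that of anti-PD-L1 replicate 1, and replicate 2 lies just under the lowest Control IgG library. Eif3b had the largest fold change of the complex, -0.59 ± 0.37 (SE), and the groups overlapped, with 170 and 152 CPM after anti-PD-L1 and 352, 237 and 141 CPM after Control IgG. Its fold change was -0.23 without Control IgG replicate 1 and -0.87 without Control IgG replicate 3. Eif3l had 299 and 332 CPM after anti-PD-L1 and 591, 377 and 383 CPM after Control IgG, a log2 fold change of -0.51 ± 0.28 (SE), and Eif3c, another core subunit, had 355 and 437 CPM after anti-PD-L1 and 508, 471 and 515 CPM after Control IgG, at -0.33 ± 0.23 (SE). For both, as for Eif3g and Eif3i, anti-PD-L1 lay below every Control IgG library. Eif3f and Eif3h, which form a pair in the complex and have the highest CPM in it, were nearest to 0. Eif3h had 583 and 531 CPM after anti-PD-L1 and 702, 513 and 484 CPM after Control IgG, and Eif3f had 453 and 535 CPM after anti-PD-L1 and 518, 473 and 438 CPM after Control IgG. Their log2 fold changes of -0.02 ± 0.26 and 0.05 ± 0.23 (SE) changed sign with the scaling or the block described in the closing section.

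Per kilobase of exon the eIF3 genes were not level with each other. Averaged over the 5 libraries they ran from 66.1 CPM per kb for Eif3a to 435 CPM per kb for Eif3h, a 6.57-fold range, while the eIF2 genes ran from 34.0 CPM per kb for Eif2s3x to 95.2 CPM per kb for Eif2s1. The eIF2B genes ran from 13.4 CPM per kb for Eif2b3 to 58.1 CPM per kb for Eif2b2. With the principal transcript as the length, a choice made after seeing the data, Eif2b3 stood at 34.8 CPM per kb and Eif3k led eIF3 at 496 CPM per kb. Per length, Eif5a was the highest of the 48 genes, at 721 CPM per kb after anti-PD-L1 and 922 CPM per kb after Control IgG, and Eif4a1 followed at 602 CPM per kb after anti-PD-L1 and 719 CPM per kb after Control IgG.

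**Figure D3:**
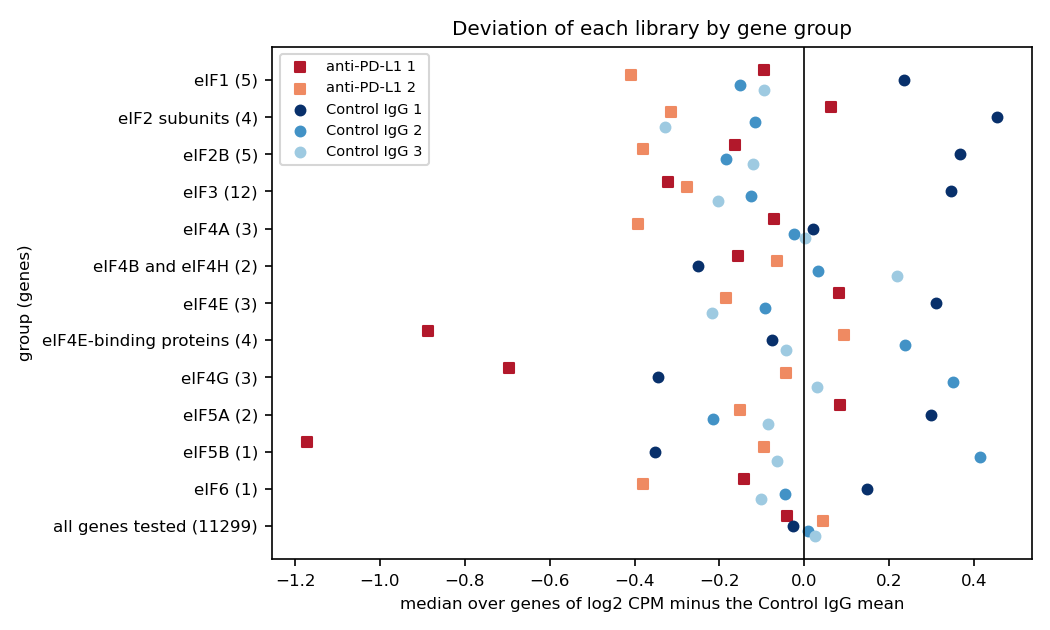
Median over the genes of each group of log2 CPM minus the mean of the 3 Control IgG libraries (horizontal axis), by gene group (vertical axis), 1 point per library. Control IgG replicate 1 lies to the right for eIF1, the eIF2 subunits, eIF2B and eIF3, at 0.24 to 0.46, and to the left for eIF4G and eIF5B, where anti-PD-L1 replicate 1 is farther left at -0.70 and -1.17.

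eIF4 genes did not share 1 pattern. eIF4A unwinds the leader of the messenger. Eif4a1, its main gene, had 1197 and 940 CPM after anti-PD-L1 and 1593, 1087 and 1149 CPM after Control IgG, a log2 fold change of -0.26 ± 0.27 (SE). Its paralog Eif4a2, named after its values were seen, had 74.7 and 250 CPM after anti-PD-L1 and 67.0, 198 and 211 CPM after Control IgG. The low values are those of the libraries numbered 1 in both groups, and the log2 fold change was 0.03 ± 0.59 (SE). Leaving out anti-PD-L1 replicate 2 gave -1.07, leaving out anti-PD-L1 replicate 1 gave 0.65, and leaving out Control IgG replicate 1 gave -0.33. Per kilobase, Eif4a1 exceeded Eif4a2 28.9-fold and 6.77-fold after anti-PD-L1 and 42.8-fold, 9.91-fold and 9.79-fold after Control IgG. Eif4a3, a relative that works in the exon junction complex, had 306 and 239 CPM after anti-PD-L1 and 308 to 318 CPM after Control IgG.

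The promoters of these 2 helicase genes are shown because the genes are close paralogs and, of 9 gene pairs set against each other, theirs is the ratio that varied most between libraries. Each window holds 250 bases before the annotated start and 50 after it, read 5′ to 3′ on the gene's strand, from RefSeq on GRCm38.p6, and capitals mark the E-box CACGTG, the letters that MYC and related factors bind. The Eif4a1 window is chr11:69672374-69672673 on the minus strand and holds the E-box from base 62 of the window. The Eif4a2 window is chr16:23107218-23107517 on the plus strand and holds none.
Eif4a1: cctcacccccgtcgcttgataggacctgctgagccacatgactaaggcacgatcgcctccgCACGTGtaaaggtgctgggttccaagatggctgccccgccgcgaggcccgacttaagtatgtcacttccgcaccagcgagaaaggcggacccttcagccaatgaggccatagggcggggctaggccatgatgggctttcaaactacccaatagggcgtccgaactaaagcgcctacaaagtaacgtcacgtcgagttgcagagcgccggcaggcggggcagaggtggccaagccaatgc
Eif4a2: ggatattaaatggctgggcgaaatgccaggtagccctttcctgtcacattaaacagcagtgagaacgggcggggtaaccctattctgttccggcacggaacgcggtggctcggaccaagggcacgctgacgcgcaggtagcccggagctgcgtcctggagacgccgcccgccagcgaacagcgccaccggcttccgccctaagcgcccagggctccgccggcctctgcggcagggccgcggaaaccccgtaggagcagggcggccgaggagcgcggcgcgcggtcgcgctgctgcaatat

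Of the 48 genes, 38 had a window in the RefSeq table, and 10 of these, or 26.3%, held CACGTG in at least 1 window. The motif is its own reverse complement, so both strands were searched. It was in the windows of 12.1% of 8869 tested genes with a window and of 8.09% of all 27025 genes of the table. The 10 genes were Eif1b, Eif3a, Eif3f, Eif3k, Eif4a1, Eif4e, Eif4g1, Eif4h, Eif5a and Eif5a2. Their median log2 fold change was -0.23, and that of the 28 genes without the motif was -0.26. A match of letters is a description and not a bound site.

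The cap-binding protein Eif4e had 207 and 194 CPM after anti-PD-L1 and 337, 216 and 199 CPM after Control IgG, a log2 fold change of -0.32 ± 0.29 (SE). Anti-PD-L1 replicate 1 lies within the Control IgG range and replicate 2 below it, and the fold change was -0.049 without Control IgG replicate 1. The eIF4E-binding proteins hold eIF4E away from eIF4G until mTOR phosphorylates them. Eif4ebp1 had 36.1 and 42.3 CPM after anti-PD-L1 and 42.6, 43.3 and 40.2 CPM after Control IgG, and Eif4ebp2 had 21.8 and 32.1 CPM after anti-PD-L1 and 28.2, 34.0 and 30.3 CPM after Control IgG. Both were lowest in anti-PD-L1 replicate 1 and within the Control IgG range in replicate 2. Per kilobase, Eif4e exceeded Eif4ebp1 2.24-fold and 1.79-fold after anti-PD-L1 and 3.08-fold, 1.94-fold and 1.93-fold after Control IgG. Eif4e3, an atypical cap-binding relative, had the highest fold change of all members, 0.42 ± 0.32 (SE), with 51.2 and 38.1 CPM after anti-PD-L1 and 24.2, 40.0 and 35.9 CPM after Control IgG.

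eIF4G is the bridge between the cap and the ribosome. Eif4g1 had 141 and 222 CPM after anti-PD-L1 and 180, 292 and 227 CPM after Control IgG, a log2 fold change of -0.36 ± 0.31 (SE). Eif4g2, a relative that lacks the eIF4E-binding part, had 546 and 352 CPM after anti-PD-L1 and 348, 433 and 400 CPM after Control IgG, and its fold change of 0.19 ± 0.27 (SE) was -0.16 without anti-PD-L1 replicate 1. Eif4g3, the helicase cofactor Eif4b and Eif4enif1, whose protein moves eIF4E to processing bodies, were named after their values were seen. Eif4g3 had 33.5 and 118 CPM after anti-PD-L1 and 38.7, 119 and 91.4 CPM after Control IgG. Eif4b had 176 and 272 CPM after anti-PD-L1 and 175, 275 and 310 CPM after Control IgG, and Eif4enif1 had 29.9 and 79.3 CPM after anti-PD-L1 and 51.0, 97.8 and 77.6 CPM after Control IgG. In each of these, as in Eif4a2, the library numbered 1 of a group was the lowest of its group. Those 2 libraries were also the ones with fewer detected genes and with lower values for long genes: over all 11158 tested genes with a length, exon length and the log2 deviation from the mean of the 5 libraries gave Spearman's rho values of -0.11 and 0.26 for anti-PD-L1 replicates 1 and 2, and of -0.26, 0.16 and 0.22 for Control IgG replicates 1, 2 and 3. The exon lengths are 10117 bases for Eif4g3, 4107 for Eif4b, 4111 for Eif4enif1 and 3197 for Eif4a2, where the median of the 48 genes is 2548. Other long members did not all follow these genes. Eif4e2 with 7497 bases, Eif1ax with 5172 and Eif4e with 5127 were highest in Control IgG replicate 1. These lengths join all annotated exons of a gene. The principal transcript has only 1807 bases for Eif4e2, but 5172 for Eif1ax and 4991 for Eif4e. It has 6139 bases for Eif4g3, 3854 for Eif4b, 3676 for Eif4enif1 and 2208 for Eif4a2. Eif4g2, with 7995 bases, was highest in anti-PD-L1 replicate 1 and lowest in Control IgG replicate 1. Over the 48 members alone the rho was -0.02 for anti-PD-L1 replicate 1 and -0.20 for Control IgG replicate 1, across genes that share their libraries. The part of gene length in these values was not tested.

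**Figure D4:**
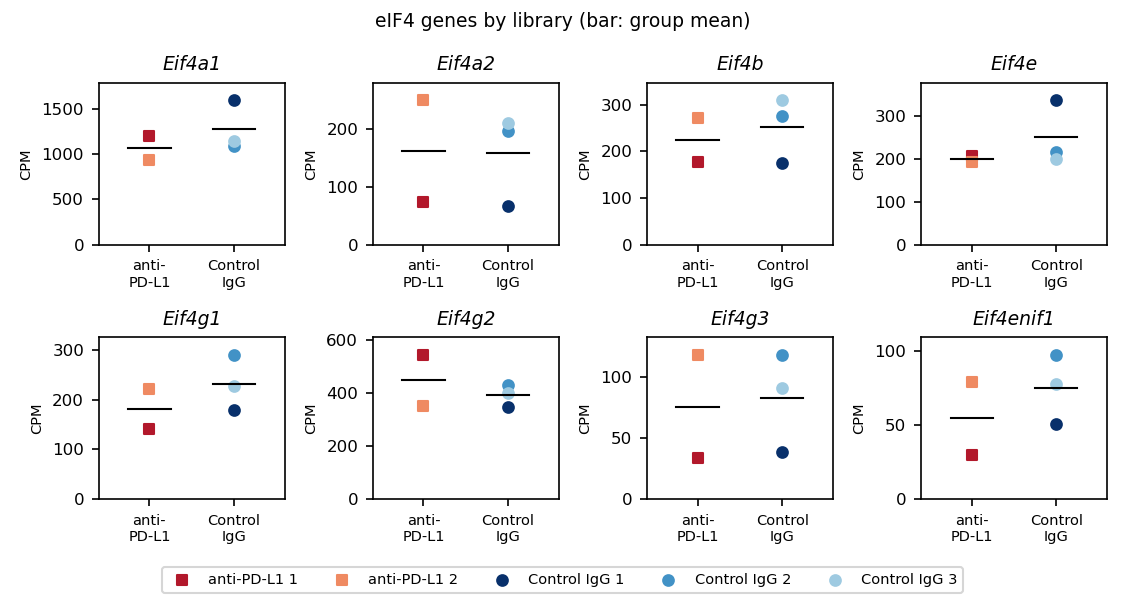
CPM (vertical axes, from 0) of 8 eIF4 genes in the 2 anti-PD-L1 and 3 Control IgG libraries (horizontal axes), 1 point per library with a bar at the group mean. Eif4a2, Eif4b, Eif4g1, Eif4g3 and Eif4enif1 are lowest in the library numbered 1 of each group.

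Eif5, at chr12:111538016-111546752 on the plus strand, triggers GTP hydrolysis by eIF2. It had 189 and 211 CPM after anti-PD-L1 and 361, 312 and 216 CPM after Control IgG, or 200 ± 15.7 CPM (SD, n = 2) against 297 ± 73.6 CPM (SD, n = 3). Its log2 fold change was -0.57 ± 0.28 (SE), and the anti-PD-L1 libraries lay just below the lowest Control IgG library. Eif5b, needed for the joining of the large subunit, had 46.6 and 98.5 CPM after anti-PD-L1 and 82.5, 140 and 101 CPM after Control IgG. Its fold change of -0.57 ± 0.38 (SE) was -0.13 without anti-PD-L1 replicate 1. Eif5a, the factor modified with hypusine that helps ribosomes over difficult stretches, was the most abundant member, at 1676 and 1753 CPM after anti-PD-L1 and 2722, 2075 and 1774 CPM after Control IgG, and the groups did not overlap by a narrow margin. Its log2 fold change was -0.35 ± 0.27 (SE). Eif5a2 stood far below it, at 17.8 and 12.2 CPM after anti-PD-L1 and 14.7, 9.43 and 13.3 CPM after Control IgG. Eif6, which keeps the large subunit from joining too early and serves in its assembly, had 256 and 217 CPM after anti-PD-L1 and 313, 274 and 263 CPM after Control IgG, a log2 fold change of -0.26 ± 0.23 (SE), also without overlap.

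Of the 3 Argonaute genes under Eif2c symbols, 2 had a log2 fold change below 0, where 51.9% of all tested genes did. Eif2c2, now Ago2, had 73.1 and 115 CPM after anti-PD-L1 and 50.1, 104 and 94.6 CPM after Control IgG. Eif2c1 had 4.26 and 25.5 CPM after anti-PD-L1 and 15.1, 29.9 and 18.3 CPM after Control IgG. Eif2c3 had 7.97 and 8.64 CPM after anti-PD-L1 and 18.6, 9.06 and 10.5 CPM after Control IgG. It was the only one of the 3 without overlap, by a narrow margin, where 9.58% of all tested genes had anti-PD-L1 below every Control IgG library.

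Other genes of translation, in lists written down with earlier results known, were read in the same fit, and none of them passed an adjusted p of 0.05. The 8 elongation genes all had a log2 fold change below 0, where 51.9% of all tested genes did, with a median of -0.38. For 4 of the 8, both anti-PD-L1 libraries lay below every Control IgG library, as for 9.58% of all tested genes. That median was -0.22 without Control IgG replicate 1 and -0.12 without both libraries numbered 1. Eef1g, part of the exchange factor of eEF1A, had 1179 and 1660 CPM after anti-PD-L1 and 2525, 1866 and 1806 CPM after Control IgG. Both hypusine enzyme genes, Dhps and Dohh, which modify eIF5A, were without overlap as well. Dohh had 65.2 and 79.9 CPM after anti-PD-L1 and 88.7, 85.3 and 90.6 CPM after Control IgG.

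Of 16 other initiation genes 12 lay below 0, where 51.9% of all tested genes did. Their median was -0.20, or -0.027 without Control IgG replicate 1. Of the 16, 1 had an unadjusted p under 0.05 in edgeR, where 2.13% of all tested genes did. This was Bzw2, whose protein resembles eIF5 and in human cells binds eIF2, with 65.4 and 106 CPM after anti-PD-L1 and 191, 176 and 153 CPM after Control IgG. Its log2 fold change was -1.02 ± 0.29 (SE), with an unadjusted p of 0.0071 and an adjusted p of 0.9999 in edgeR. The 9 genes for the eIF2 kinases, their partners and the phosphatase subunits had a median of 0.02, or -0.059 without Control IgG replicate 1. Of these, 6 lay above and 3 below 0, where 51.9% of all tested genes lay below. Eif2ak3, which encodes the kinase PERK of the endoplasmic reticulum, had 11.1 and 16.5 CPM after anti-PD-L1 and 5.18, 11.5 and 12.0 CPM after Control IgG.

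Of the 3 tested termination and recycling genes 2 lay below 0, where 51.9% of all tested genes did. Their median was -0.39, or -0.087 without Control IgG replicate 1. The release factor gene Gspt1 had 74.4 and 61.9 CPM after anti-PD-L1 and 168, 110 and 69.4 CPM after Control IgG. Of 9 mitochondrial translation factors 8 lay below 0, against the same 51.9%, with a median of -0.20. Tufm, the mitochondrial elongation factor, had 123 and 154 CPM after anti-PD-L1 and 196, 141 and 188 CPM after Control IgG. The 7 genes of mTOR and MYC input had a median of -0.18. Leaving out anti-PD-L1 replicate 1 turned it to 0.013, and leaving out anti-PD-L1 replicate 2 gave -0.38. Myc itself had 229 and 534 CPM after anti-PD-L1 and 745, 469 and 525 CPM after Control IgG, lowest in anti-PD-L1 replicate 1 and highest in Control IgG replicate 1. In these bulk pools, fewer cells of one kind and less RNA of a gene per cell cannot be told apart.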

How the data were processed

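The authors deposited whole-number read counts per gene symbol, with no normalization. TopHat, HTSeq and the mouse build mm10 are named, per the submitters' processing notes. Not given in the sources used here are their versions, the gene annotation, whether counting used strand, and how multi-mapped reads were handled. Per the labels' protocols, poly(A) RNA of 5000 to 30000 cells was amplified by a modified Smart-seq2 protocol, without strand or molecule marks, which leaves reads of overlapping genes (Eif2a and Serp1, or Eif4a2 and Rfc4, among 10 such members) and of pseudogene copies uncertain. Counter lines for unassigned reads stayed out of totals and tests. Reads without a feature were 7.46% to 15.2% and ambiguous reads 1.38% to 1.51% of a library. The floor of 3 counts is 0.234 to 0.300 CPM, for counting error only.

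The test was that of edgeR 4.0.16, run in R 4.3.3 (quasi-likelihood F-test, two-sided, TMM, filterByExpr defaults, Benjamini-Hochberg over 11299 genes). A standard error is the log2 fold change divided by the square root of F. Log2 CPM used a prior count of 2. No 2 libraries were copies of each other, with a chi-square per degree of freedom of at least 19.2. The labels do not tie replicate numbers to mice or days, so p-values measure the spread between pools. On data simulated from this comparison's 11299 genes, 4.48% of 67 genes changed 2-fold and 77.6% of 67 changed 4-fold were called. The changed genes were drawn without those of lowest mean CPM. In the same run, 14 unchanged genes were called.

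The members and lists were chosen with earlier results of these data known. Described with all values are the 10 members of smallest p, the 2 of highest mean CPM per subfamily, a fixed set (Eif4e, Eif4ebp1, Eif4ebp2, Eif4a1, Eif4g1, Eif2s1, Eif2b5, Eif3a, Eif5a, Eif6, Eif2s3x, Eif2s3y) and 1 gene per list. The other members with printed values were chosen after these were seen. Exon lengths and positions are those of the GENCODE vM21 annotation (GRCm38, which mm10 denotes), where all 51 members were found. Alternatives were other scalings, no filter, DESeq2, limma-voom, a replicate block and libraries left out. Protein sequences were not analysed here.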

Additional observations from a re-analysis of the deposited data

How the results depend on the processing

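Over 13 alternatives of scaling, filter, tool and libraries, none of the 51 members passed an adjusted p of 0.05, and the median of the members stayed below 0. Members at an unadjusted p under 0.05 numbered 3 with library totals only, 1 with DESeq2, 7 with the replicate block, 0 to 5 with a single library left out and 1 without both libraries numbered 1. Over all genes the calls were 5 without a low-count filter, 4 with DESeq2 and 1 without both libraries numbered 1, and 0 with any single library left out. None of these called genes was a member. Members with anti-PD-L1 below every Control IgG library numbered 12 with RLE or upper-quartile factors, where 9.01% and 8.33% of tested genes lay so, and 18 with library totals, where 10.8% did. They numbered 16 to 24 with a single library left out, where 13.7% to 30.7% of tested genes lay so, and 28 without both libraries numbered 1, where 31.7% did. These comparisons were chosen after seeing the data. With a single library left out, the median log2 fold change ran from -0.43 to -0.0098 for eIF1, from -0.43 to -0.072 for eIF2, from -0.43 to -0.084 for eIF3, from -0.24 to 0.0074 for eIF4, from -0.55 to -0.23 for eIF5, from -0.58 to -0.027 for other initiation proteins, from -0.45 to -0.22 for elongation, from -0.54 to -0.087 for termination and recycling, from -0.38 to 0.013 for mTOR and MYC input, from -0.059 to 0.24 for the eIF2 kinases and phosphatase and from -0.33 to -0.17 for the hypusine enzymes. Without both libraries numbered 1 it was -0.22 for eIF5, 0.051 for other initiation proteins, -0.12 for elongation and -0.18 for the hypusine enzymes.

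Some fold changes changed sign. Eif1 had 0.011 with RLE factors and with DESeq2 and 0.024 with upper-quartile factors, Eif3h 0.0048 with upper-quartile factors, Eif3f -0.0078 with the replicate block and Eif4a2 -0.039 in limma-voom. With a single library left out, the ranges that crossed 0 were -0.071 to 0.083 for Eif1, -0.65 to 0.094 for Eif1ax, -0.49 to 0.25 for Eif2s1, -0.54 to 0.0062 for Eif2s2, -0.12 to 0.16 for Eif3h, -0.049 to 0.17 for Eif3f, -0.16 to 0.49 for Eif4g2, -0.20 to 0.0074 for Eif4ebp1, -0.48 to 0.059 for Eif4ebp2, -0.27 to 0.078 for Eif2s3y and -1.07 to 0.65 for Eif4a2. Without both libraries numbered 1, signs changed for Eif1 at 0.12, Eif3h at 0.080, Eif4g2 at -0.25, Eif4ebp1 at 0.0061, Eif2s3x at -0.037 and Myc at 0.091. Other fold changes kept their sign and shrank by over 1.5 times. Without Control IgG replicate 1 they were -0.26 for Eif2a, -0.34 for Eif2b1, -0.27 for Eif3l, -0.065 for Eif4a1 and -0.17 for Eif5a. Without anti-PD-L1 replicate 1 they were -0.28 for Eif3a, -0.19 for Eif3c and -0.072 for Eif4g1, and without anti-PD-L1 replicate 2 they were -0.19 for Eif2b5 and -0.12 for Eif6. The cause was not tested. Where a single anti-PD-L1 library remained, it was assumed to vary like the Control IgG libraries.

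Replicate numbers 1 and 2 occur in both groups. Deviations from the group means correlated over genes at 0.331 for the pair numbered 1 and at 0.374 for the pair numbered 2. Anti-PD-L1 replicate 2 and Control IgG replicate 3, which share no number, correlated at 0.162. With 2 anti-PD-L1 libraries, the deviations of 1 are those of the other with the sign turned. The correlations are therefore linked and are not separate observations of pairing. With only 2 pairs, and no label that ties a number to a mouse, day or batch, the numbers were not taken to pair the samples. Number 3 occurs only in Control IgG, so with the replicate block that library adds nothing to the difference between the groups. With the block the median of the 51 members was -0.37, and with Control IgG replicate 3 left out it was -0.38. The 7 members at an unadjusted p under 0.05 with the block were Eif2a, Eif2b5, Eif2s2, Eif3a, Eif3b, Eif5 and Eif5b, with a smallest adjusted p of 0.819 in edgeR. Depth limits mainly Eif4ebp3, which had 13 counts in anti-PD-L1 replicate 1.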
